A study of Danio rerio with 2 samples.

Results

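The genes *gfra1a*, *gfra1b* and *ret* encode the receptors through which glial cell line-derived neurotrophic factor (GDNF) is read. They were taken by symbol from the gene list of the count matrices and are 3 of its 27771 genes (*gfra1a* ENSDARG00000099732, *gfra1b* ENSDARG00000102564, *ret* ENSDARG00000055305). These genes were picked with earlier results of the same libraries in view, among them a high *gfra1* level in one group of motor neurons, so they were chosen by the UMI levels of these libraries and their levels are given here as a description with no test.

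GFRα1 is a coreceptor anchored in the outer face of the cell membrane that binds GDNF and hands it to Ret, a receptor tyrosine kinase that carries the signal inward. Ret is shared by the whole GFRα family: in mammals GFRα2 prefers neurturin, GFRα3 artemin and GFRα4 persephin, so the coreceptor in a cell sets which ligand it can answer to. In mice and chicks GDNF from the limb and muscle acts on motor neurons as a survival factor and an axon guide, and in the mouse it induces the ETS transcription factor Etv4 (Pea3) in some motor pools. Zebrafish hold *gfra1a* and *gfra1b* as duplicated copies of the mammalian gene and a single *ret*.

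The cells came from pooled zebrafish trunks, heads removed, of the line *Tg(olig2:dsRed)*, sorted on fluorescence at 60 hpf and at 28 hpf (hours post fertilization). Both groups carried the same transgene in fish outcrossed to wild type, and the labels name no other allele or agent. In this line dsRed is made under *olig2* control and is slow to decay, so red cells include neurons and glia that have already switched *olig2* off. There was 1 library at each stage, so no difference had a replicate check and stage and library cannot be told apart, and the study's other stage, 42 hpf, was not analysed here.

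With at least 1000 detected genes required, 5517 of 7905 cells were kept at 60 hpf and 8390 of 10124 at 28 hpf, with medians of 6809 and 7375.5 UMIs (unique molecular identifiers, one per captured transcript). Clusters were named from marker genes, with the 3 receptor genes left out of the clustering. The motor neuron-like cells, called motor neurons from here on, numbered 2941 at 60 hpf in 5 main clusters and 587 at 28 hpf, where 583 of them lay in a single cluster. In each of these 6 clusters all 13 motor neuron markers had UMIs and summed to between 57.5 and 92 per 10000 UMIs, while the 12 V2b/KA interneuron markers summed to between 0.221 and 1.15. The name is not firm for cluster 18 at 60 hpf, which scored 1.63 for motor neuron and 1.41 for neuronal precursor markers. Its leading genes over the other motor neurons included the precursor markers *neurod4* and *dlb*. The sort also held erythroid cells, 530 at 60 hpf and 724 at 28 hpf. The libraries shared 16 barcodes among kept cells. Predicted doublets were 4.40% of cells at 60 hpf and 6.71% at 28 hpf, shares set by the number of cells kept and not measured.

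A level is the summed UMIs of a gene per 10000 UMIs of the group, with its exact 95% Poisson interval. Shares of cells were computed after each cell was thinned to 2000 UMIs, with exact binomial intervals. Both intervals cover counting error only, and they are too narrow where a few cells hold many of the UMIs: the richest single cells at 60 hpf had 58 UMIs of *gfra1a*, 68 of *gfra1b* and 114 of *ret*. A gene is called higher or lower when its level differs at least 2-fold with at least 20 UMIs over both groups, a rule of size and not a test. Whether reads that match both *gfra1* copies were lost in counting was not tested.

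All 3 genes were higher in motor neurons than in interneurons. At 28 hpf *ret* was higher still in the neuronal precursors as a class. This was so in their cluster 5, whose name is not firm, and not in their cluster 2. *ret*, the signalling chain, reached 4.31 per 10000 in motor neurons at 60 hpf (4.23 to 4.38) and 3.50 at 28 hpf (3.33 to 3.67), against 0.687 (0.603 to 0.780) in interneurons at 60 hpf and 1.38 (1.33 to 1.44) in interneurons at 28 hpf. *gfra1b* reached 1.74 in motor neurons at 60 hpf (1.69 to 1.79) and 4.30 at 28 hpf (4.12 to 4.49), against 0.312 and 0.610 in interneurons of the same stages. *gfra1a* was at 0.805 in motor neurons at 60 hpf (0.772 to 0.838) and at 0.355 at 28 hpf (0.303 to 0.413), against 0.131 and 0.0406 in interneurons. The motor neuron intervals stood apart from those of the interneurons for each gene and stage.

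As log2 ratios of motor neurons over interneurons at 60 hpf, *gfra1a* stood at 2.62 (2.2 to 3.08), *gfra1b* at 2.48 (2.2 to 2.76) and *ret* at 2.65 (2.46 to 2.84). All 3 were thus called higher, where 7.82% of all genes tested were, and they ranked 174, 203 and 163 of 16338 from the top. At 28 hpf the log2 ratios were 3.13 for *gfra1a*, 2.82 for *gfra1b* and 1.34 for *ret*, and again all 3 were called higher, against 14.5% of all genes. The 28 hpf ratios of the coreceptors rest on which cells are named motor neurons: with cells of at least 500 genes, the 807 cells so named at 28 hpf held only 154 of the 587, and the log2 ratios there were −0.50 for *gfra1a* and −0.65 for *gfra1b*. Of the 1660 interneurons at 28 hpf, 719 lay in cluster 6, where 25.9% of cells were predicted doublets and the motor neuron markers summed to 12.2 per 10000, against 4.97 in the other V2b/KA interneurons. Without cluster 6 the 28 hpf log2 ratios were 3.15, 2.89 and 1.63 for *gfra1a*, *gfra1b* and *ret*. The interneurons then left still held motor neuron markers at 10.1 per 10000. Among them the V3 interneurons had *tac1* at 21.8 and *slc18a3a* at 4.42, both on the motor neuron list, and were not left out.

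**Figure D1:**
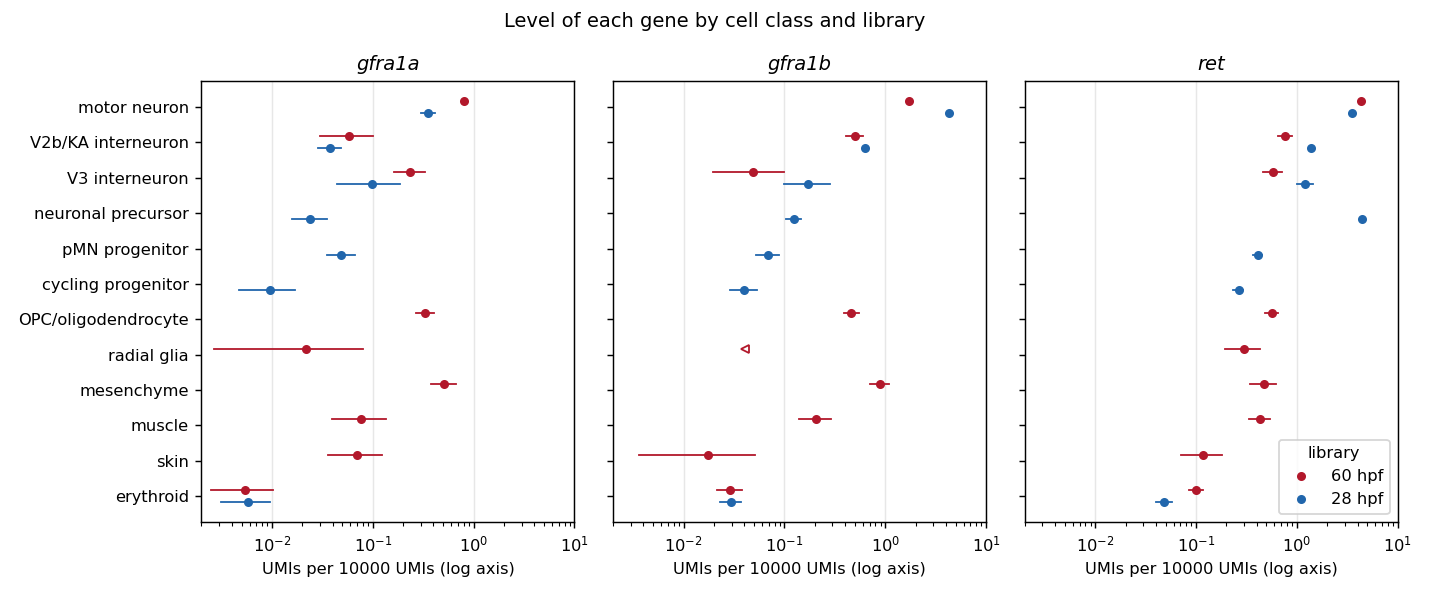
Levels of *gfra1a*, *gfra1b* and *ret* (UMIs per 10000, log axis) in each cell class at 60 hpf and 28 hpf, with bars for exact 95% Poisson intervals. Progenitors named pMN are drawn at 28 hpf only. The open triangle is the upper bound for radial glia, which had no *gfra1b* UMI. Motor neurons at 28 hpf lead for *gfra1b* at 4.30, motor neurons at 60 hpf lead for *gfra1a* at 0.805, and *ret* is about as high in 28 hpf neuronal precursors (4.45) as in 60 hpf motor neurons (4.31).

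The order of the classes differed among the genes. For *gfra1a*, mesenchyme at 60 hpf (0.512, 0.381 to 0.674) followed the 60 hpf motor neurons, but 1 cell held 28 of its 51 UMIs and without that cell the level was 0.238 (0.151 to 0.357). Motor neurons at 28 hpf (0.355) did not differ from oligodendrocyte-lineage cells at 60 hpf (0.330, 0.268 to 0.402) beyond their intervals. For *gfra1b*, mesenchyme at 60 hpf (0.884, 0.709 to 1.09) came next after the motor neurons of both stages, a place that rested on 1 cell with 60 of its 88 UMIs: without that cell the level was 0.289 (0.192 to 0.418). V2b/KA interneurons at 28 hpf (0.634, 0.597 to 0.673, and 0.650 without cluster 6) followed, and the same interneurons at 60 hpf overlapped with them (0.496, 0.405 to 0.602). For *ret*, neuronal precursors at 28 hpf (4.45, 4.32 to 4.57) and motor neurons at 60 hpf overlapped at the top. Motor neurons at 28 hpf (3.50) stood below both, but above cluster 2 of these precursors. V2b/KA (1.39) and V3 (1.21, 0.996 to 1.46) interneurons at 28 hpf overlapped further down.

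The coreceptor levels differed between the interneuron classes at 60 hpf. *gfra1b* was at 0.496 in V2b/KA interneurons and at 0.0484 in V3 interneurons (7 UMIs), whereas *gfra1a* was at 0.0578 in V2b/KA interneurons (12 UMIs) and at 0.235 in V3 interneurons (34 UMIs). Neither pair of intervals overlapped, but the lower level of each pair rests on few UMIs, over 232 V3 and 342 V2b/KA cells. Whether these lower levels stood above free RNA in the droplets was not tested. The 60 hpf V2b/KA class included 32 cells of cluster 6 and 7 of cluster 7, of which 75% and 71.4% were predicted doublets. Their part in this contrast was not tested. At 28 hpf V2b/KA interneurons had 0.634 and V3 interneurons 0.173 for *gfra1b*, while for *gfra1a* both were low, at 0.0375 and 0.0972, with overlapping intervals. The V3 name is not firm: its cluster scored 2.57 for V3 markers and 2.53 for dorsal or V0-V1 interneuron markers. The V3 marker *uncx* was among its leading genes.

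Erythroid cells should lack these receptors, so their UMIs of these genes are taken as free RNA in the droplets. Free RNA is taken up per droplet and not per UMI of the cell, so shares before thinning are set side by side. At 60 hpf *gfra1a* was found in 13.2% of motor neurons (median 5962 UMIs) against 1.70% of erythroid cells (31210.5 UMIs), *gfra1b* in 23.7% against 4.15%, and *ret* in 75.6% against 9.81%. At 28 hpf the shares in motor neurons (7438 UMIs) were 14.1%, 60.1% and 57.2% for the 3 genes, against 0.967%, 2.62% and 8.01% in erythroid cells (33240.5 UMIs). The motor neuron shares were thus above this background for every gene and stage. Thinned to 2000 UMIs, the shares in motor neurons were 7.52%, 14.8% and 49.1% at 60 hpf, and 6.46%, 40.0% and 40.0% at 28 hpf. In radial glia at 60 hpf *gfra1b* had no UMI in 109 cells, which allows a level of up to 0.0329 at 3 counts.

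Within the 60 hpf motor neurons the coreceptors were concentrated in 1 cluster and *ret* was not. Cluster 15, with 410 cells, held 59.0% of the *gfra1a* UMIs of the 60 hpf motor neurons and 53.1% of the *gfra1b* UMIs, with 13.9% of the cells and 7.99% of all UMIs. Its share of the *ret* UMIs was 12.8%. This cluster is led by *mafb*, a bZIP transcription factor, *tbx3b*, a T-box transcription factor, *apoeb*, an apolipoprotein, and *adarb2*, of the adenosine deaminase family for RNA.

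*gfra1b* was at 11.6 per 10000 (11.1 to 12) in cluster 15, and at 1.05 in cluster 1, 0.662 in cluster 10, 0.435 in cluster 12 and 0.152 in cluster 18. *gfra1a* was at 5.95 (5.63 to 6.27) in cluster 15, and at 0.439, 0.230, 0.0413 and 0.161 in clusters 1, 10, 12 and 18. For both copies all intervals but 1 pair stood apart: those of clusters 10 and 18 overlapped for *gfra1a*. *ret* was at 6.90 (6.57 to 7.25) in cluster 15 and 6.20 (5.91 to 6.49) in cluster 10, then at 4.2 in cluster 1, 3.61 in cluster 18 and 1.40 in cluster 12. The range over the 5 clusters was thus far wider for the coreceptors than for the kinase, and cluster 12, led by *cremb*, *col19a1* and the peptide gene *uts1*, was lowest for *ret* and *gfra1a*.

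**Figure D2:**
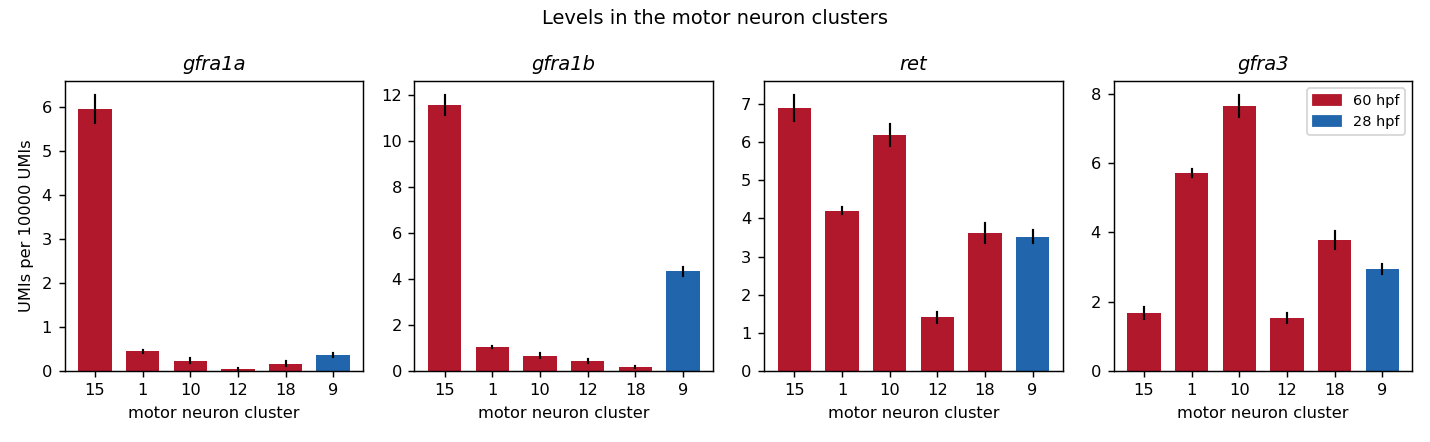
Levels (bars, UMIs per 10000 from 0, with lines for exact 95% Poisson intervals) of *gfra1a*, *gfra1b*, *ret* and *gfra3* in the 5 motor neuron clusters at 60 hpf and the 1 at 28 hpf. Cluster 15 stands out for *gfra1a* (5.95) and *gfra1b* (11.6), and clusters 10 and 1 for *gfra3* (7.64 and 5.72).

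Shares of cells come from the same UMIs and describe how these were spread over the cells. After thinning, *gfra1b* was seen in 62.3% of cluster 15 cells and *gfra1a* in 37.2%, against at most 10.1% and 3.72% of the cells in any other 60 hpf motor neuron cluster. *ret* was seen in 60.7% of cluster 15 cells and in 65.6% of cluster 10 cells. Cluster 15 was not even inside: 44.9% of its cells had at least 5 UMIs of *gfra1b*, its median cell had 3, and 127 of its 379 thinned cells had neither *gfra1* copy. Cluster 1, with the deepest cells (median 11470 UMIs, against 4428.5 in cluster 15), held single cells with as many as 68 UMIs of *gfra1b* and 58 of *gfra1a*, and 9.43% of its cells had at least 5 UMIs of *gfra1b*.

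Cluster 15 over the other 60 hpf motor neurons gave log2 ratios of 4.05 for *gfra1a*, 3.70 for *gfra1b* and 0.76 for *ret*. Both copies were called higher, where 7.18% of genes were, and they ranked 2 and 4 of 15658, while *ret* ranked 1833 and was not called. The cluster was picked for this pattern, so these values describe it. Its cells were gathered under other clusterings too: the cluster highest in *gfra1b* held between 77.8% and 94.6% of the cells of cluster 15 under the other 6 clusterings, though it was broader, at 1583 and 833 cells, in those from cells with at least 500 genes and from all variable genes. The neighbouring types that also held *gfra1* were not rich in cluster 15: its mesenchyme markers summed to 0.230 with 6 of 9 detected (0.266 to 0.504 in the other 60 hpf motor neuron clusters) and its oligodendrocyte-lineage markers to 0.503 with 8 of 10 detected (0.375 to 0.775).

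In cluster 15, where both *gfra1* copies were highest, *gfra3* was low, the receptor for artemin in mammals. It was at 7.64 in cluster 10, 5.72 in cluster 1 and 3.77 in cluster 18, and at 1.67 (1.5 to 1.84) in cluster 15 and 1.52 (1.38 to 1.68) in cluster 12, which overlapped. Among the other 60 hpf motor neuron clusters the order was mixed. Clusters 1 and 10 were above clusters 12 and 18 for *gfra1b* as for *gfra3*. Cluster 12 was above cluster 18 for *gfra1b* and below it for *gfra3*, and for *gfra1a* clusters 10 and 18 overlapped. Over the other 60 hpf motor neurons *gfra3* in cluster 15 had a log2 ratio of −1.67. It was called lower, where 12.1% of genes were. *gfra4b* was also called lower, with 3 UMIs in cluster 15 (level 0.0130, against 0.231 in the others). Its log2 ratio was −3.74 with 1 UMI added to each sum. Without that UMI the interval by counting error was −6.43 to −2.60. *gfra2a*, the neurturin type, was highest in cluster 12 at 0.386 (0.315 to 0.469).

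The coreceptor found beside *ret* therefore differed between the clusters. In cluster 15, 33.8% of thinned cells (29.0% to 38.8%) had *ret* with *gfra1* and no *gfra3*, 5.01% had *ret* with *gfra3* and no *gfra1*, and 12.7% had *ret* with both coreceptors. In cluster 10 the same shares were 2.02%, 42.8% and 3.68%, and in cluster 1 they were 2.81%, 28.6% and 4.72%. In cluster 18 no cell of 328 had *ret* with *gfra1* alone, which allows a share of up to 0.915% at 3 counts (exact 95% upper bound 1.12%) of cells with such UMIs after thinning, and 22.6% had *ret* with *gfra3* alone. Over all motor neurons *ret* with *gfra1* alone was found in 6.56% of cells at 60 hpf and 8.80% at 28 hpf, against 0.893% and 1.28% of the interneurons of these stages. *ret* with neither coreceptor was found in 14.7% of motor neurons at 60 hpf, where a coreceptor can be missed at 2000 UMIs.

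**Figure D3:**
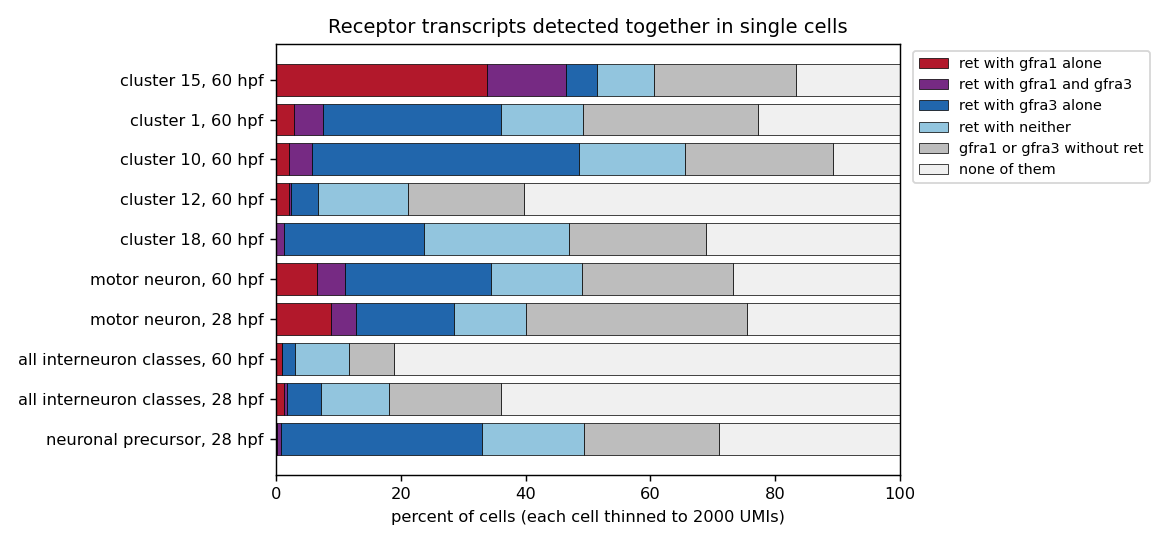
Share of thinned cells (percent) in which *ret* was found with *gfra1* alone, with *gfra3* alone, with both or with neither, by motor neuron cluster and by class at 60 hpf and 28 hpf. *ret* with *gfra1* alone makes up 33.8% of cluster 15 and at most 2.81% of the other 60 hpf motor neuron clusters.

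Other genes of the pathway were set beside this pattern in lists that were also chosen with earlier results known. Over all genes tested in cluster 15 against the other 60 hpf motor neurons, 7.18% were called higher and 12.1% lower. Among the genes induced by Ret or other receptor kinases, 2 of 10 were called higher in cluster 15 and none lower: *etv4* at 1.08 against 0.226 in the other 60 hpf motor neurons, and *etv5a* at 0.664 against 0.257, both ETS transcription factors. The list's median log2 ratio was 0.07, against 0.00 over all genes tested. Of 8 Ret adaptors tested, *dok6*, a docking protein that binds Ret in mammals, was called higher (1.02 against 0.280) and none lower, with a list median of 0.30.

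The next lists are read against the same shares over all genes, 7.18% higher and 12.1% lower. The other clusters are pooled by UMIs in these levels, and cluster 1 held 64.99% of all UMIs of the 60 hpf motor neurons. Of 6 neurofilament genes, which build the axon's skeleton, *nefmb* (35.1 against 5.50) and *neflb* (17.4 against 3.0) were called higher in cluster 15. In cluster 12 alone *nefmb* was at 14.9 and *neflb* at 11.3. *inaa* was called lower in cluster 15 on 1 UMI (0.00434), but clusters 1 (0.00427) and 10 (0.00343) were about as low and cluster 18 had none. Cluster 12 held 52 *inaa* UMIs (0.195). The list median log2 ratio was 0.63. Of 11 other trophic receptors none was higher and 3 were lower, *met* (0.0217 against 0.203), the receptor for hepatocyte growth factor, *ntrk3a*, a neurotrophin-3 receptor, and *ngfrb*, with a median of −0.32. Of 17 genes of motor neuron columns and pools, *etv4* and *calca* were higher and 6 were lower, with a median of −0.72. The lower ones were *bmp16* (0.0781 against 2.15), *esrrga* (1.15 against 6.36), *foxp1b* (0.920 against 2.96) and the tail-level *hoxa13a*, *hoxb13a* and *hoxc13a*. *foxp1b* is a gene of limb-level motor neurons in the mouse. Taken by cluster, *calca* was higher in cluster 12 (11.99) than in cluster 15 (5.88). *esrrga* and *foxp1b* were lower in cluster 12 (0.739 and 0.0863) than in cluster 15, as was *foxp1b* in cluster 18 (0.508). *bmp16* was at 2.88 in cluster 1 and between 0.364 and 0.427 in clusters 10, 12 and 18. *etv4*, *bmp16* and the *hox* genes kept their direction against each other cluster. Of 4 genes listed as other membrane proteins of the GDNF pathway, *gas1a* and *gas1b* were called lower, each on 1 UMI in cluster 15, with a median of −1.02.

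Between the stages the members went different ways in motor neurons. *gfra1a* was at 0.805 at 60 hpf against 0.355 at 28 hpf (log2 ratio 1.18, 0.96 to 1.42) and was called higher, as were 18.8% of genes. *gfra1b* was at 1.74 at 60 hpf against 4.30 at 28 hpf (log2 ratio −1.31, −1.38 to −1.23) and was called lower, as were 12.8%. *ret* was at 4.31 against 3.50 (log2 ratio 0.30) and was not called. The median log2 ratio over all genes tested was 0.20. Only the direction for *gfra1a* over all motor neurons held under every alternative run (log2 ratio 1.03 to 5.01). Neither the *gfra1a* nor the *gfra1b* direction held in every 60 hpf cluster. Cluster 15 held 59.0% of the *gfra1a* UMIs of the 60 hpf motor neurons on 7.99% of all their UMIs. In clusters 10, 12 and 18 *gfra1a* lay below its 28 hpf level. *gfra1b* lay above its 28 hpf level in cluster 15 and below it in the other clusters.

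The stage ratios of *gfra1b* and *ret* turned with the choice of cells, which changed at both stages. *gfra1b* kept its direction under 7 of 9 alternatives, but its log2 ratio was 0.09 when motor neurons were gated cell by cell on marker UMIs and 2.19 with cells of at least 500 genes. *ret* was above 0 under 5 and below 0 under 4 of 9 alternatives. In the gated set 477 of the 1686 motor neurons at 28 hpf were shared with the 587, and its *gfra1b* level at 28 hpf was 1.45. The *ret* level of the gated motor neurons was 3.62 at 60 hpf and 4.03 at 28 hpf. In interneurons the log2 ratio of 60 hpf over 28 hpf was 1.68 for *gfra1a*, −0.97 for *gfra1b* and −1.01 for *ret*, where the V2b/KA share of the interneurons also differed, at 342 of 574 cells and 1539 of 1660. Whether the 60 hpf over 28 hpf ratio differed between motor neurons and interneurons was not tested.

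Finer clustering showed what lay under the 28 hpf averages. At resolution 2, the 28 hpf motor neurons fell into cluster 23 of that clustering (247 cells, all from the single 28 hpf cluster) and cluster 8 (525 cells, 336 from that cluster and 183 from a neuronal precursor cluster). *gfra1b* was at 5.87 (5.53 to 6.22) in the first and 2.39 (2.24 to 2.55) in the second, while *ret* was at 1.13 (0.990 to 1.29) and 5.78 (5.55 to 6.03) and *gfra3* at 1.25 and 5.42. *gfra1a* did not differ beyond its interval (0.298 and 0.291). The summed motor neuron markers were close, at 84.2 and 88.9, and the summed precursor markers were 12 and 17.7. At 28 hpf, therefore, the cluster with the higher *gfra1b* level had the lower *ret* level, whereas cluster 15 at 60 hpf was high in both. Cluster 8 still held 944 *gfra1b* UMIs, against 1143 in cluster 23.

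**Figure D4:**
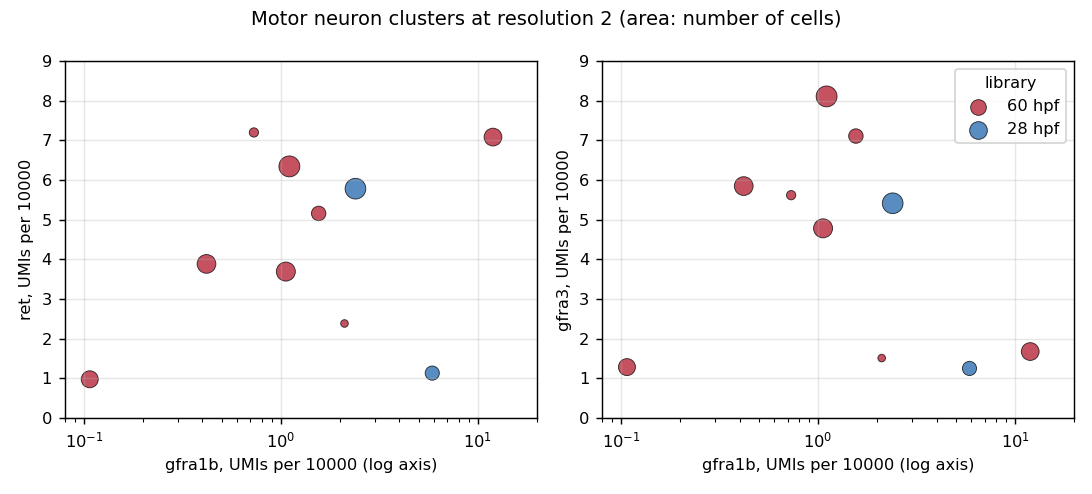
Levels (UMIs per 10000) of *ret* (left) and *gfra3* (right) against *gfra1b* (log axis) in the motor neuron clusters of the finer clustering. Each point is a cluster at 60 hpf or 28 hpf, with its area by number of cells. Cluster 17 at 60 hpf, all of whose 388 cells lay in cluster 15, is high in *gfra1b* (11.9) and *ret* (7.08), and cluster 23 at 28 hpf is high in *gfra1b* (5.87) but not in *ret* (1.13).

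At 60 hpf the finer clustering kept 388 of the 410 cells of cluster 15 together. It split cluster 12: a group of 355 cells, mostly from there, had *gfra1b* at 0.107 and *ret* at 0.978, a group of 71 cells had *gfra1b* at 2.10 and *ret* at 2.39, and a group of 106 cells from clusters 12 and 10 had *gfra1b* at 0.730 and *ret* at 7.20. The low *ret* of cluster 12 was thus that of its largest group.

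*ret* and *gfra3* were high in the neuronal precursors at 28 hpf as a class, where *gfra1b* was not. Motor neurons over neuronal precursors at 28 hpf gave log2 ratios of 3.89 for *gfra1a*, 5.12 for *gfra1b* and −0.35 for *ret*. Of the precursor clusters, cluster 5, which carried more motor neuron marker UMIs (47.0 per 10000, against 5.93 in cluster 2), had *gfra1b* at 0.226 against 0.0335 in cluster 2, and *ret* at 6.77 against 2.38. *ret* with *gfra3* alone was found in 32.3% of precursor cells and *ret* with *gfra1* alone in 0.168%.

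Co-detection was counted in the thinned cells and set against the product of the 2 genes' shares, which is what independent detection would give within a group. In 60 hpf motor neurons *gfra1a* and *gfra1b* were found together in 156 cells against 31.3 for independence, a ratio of 4.98 (4.24 to 5.79). Within cluster 15 the ratio was 1.42 (125 cells), and outside it 5.89 (31 cells, 4.01 to 8.34). At 28 hpf it was 1.94 (28 cells). The cells outside cluster 15 pool clusters with unlike levels of these genes. The part of this pooling and of predicted doublets in such ratios was not tested. Among 60 hpf motor neurons 73.6% of the cells with *gfra1a* also had *gfra1b*, and 37.4% of those with *gfra1b* had *gfra1a*.

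Any *gfra1* with *ret* was found in 311 motor neurons at 60 hpf against 232 for independence (ratio 1.34, 1.2 to 1.49). Within cluster 15 the ratio was 1.15 and outside it 1.29. At 28 hpf the pair was found in 71 motor neurons against 92.5 (ratio 0.77, 0.61 to 0.95), but at 1000 UMIs a cell the ratio was 0.94 (0.70 to 1.22), which spans 1. With predicted doublets removed and cells clustered anew it was 0.62. The 28 hpf value of 0.77 was that of *gfra1b* with *ret* (0.77, 69 cells), while *gfra1a* with *ret* was at 1.46 (21 cells, 0.908 to 2.2). In 60 hpf interneurons any *gfra1* with *ret* was counted in 5 cells against 3.37, and in 28 hpf interneurons in 29 against 27.8.

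*gfra3* with *ret* exceeded the product in motor neurons at 60 hpf (1.18) and at 28 hpf (1.74, 1.45 to 2.05). *gfra1* with *gfra3* was at 0.79 over all 60 hpf motor neurons, but not below the product inside the clusters: the ratio lay between 0.98 in cluster 10 and 1.93 in cluster 18, each of the 5 with an interval that spans 1. Before thinning the ratio over all 60 hpf motor neurons was 0.93, with an interval that also spans 1. At 28 hpf the ratio was 0.49 (0.34 to 0.68), within a single cluster for nearly all cells. That cluster also pools unlike cells. At resolution 2 *gfra1b* was at 5.87 and *gfra3* at 1.25 in cluster 23, against 2.39 and 5.42 in cluster 8. The part of this pooling in the 28 hpf ratios was not tested.

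**Figure D5:**
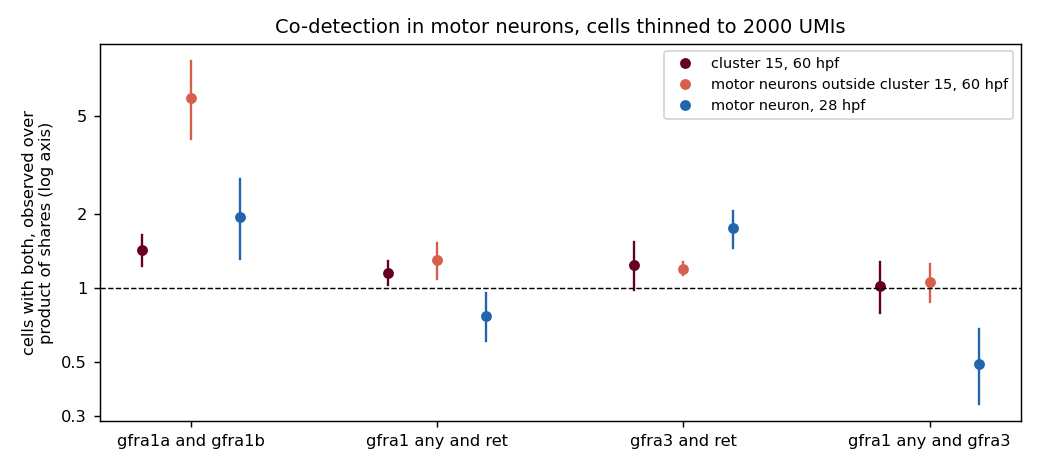
Observed number of thinned cells with both genes over the number expected from the product of shares (log axis, lines for exact 95% binomial intervals), by pair, in cluster 15 and the other motor neurons at 60 hpf and in motor neurons at 28 hpf, with the dashed line at 1 for independence. Any *gfra1* with *ret* lies at 1.15 in cluster 15 and 1.29 outside it, and at 0.77 at 28 hpf.

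The 60 hpf motor neurons were next split into 473 thinned cells with a *gfra1* UMI and 2347 with none. Of the 473 cells, 252 lay in cluster 15. *ret* was at 6.39 in cells with *gfra1* against 3.82 in cells without (log2 ratio 0.74, not called), and *gfra3* at 4.44 against 5.17. Genes called higher made up 1.76% of those tested, among them *tbx3b* (1.70 against 0.205, with UMIs in 168 of the *gfra1* cells), *nefmb* (17.9 against 5.63), *neflb* (8.78 against 3.13), *etv4* (0.713 against 0.198) and *etv5a* (0.513 against 0.240). The bone matrix genes *col10a1a* and *enam* headed the list, but 99.8% and 99.2% of their UMIs came from 1 cell. Genes called lower made up 1.5% and included *irx1a* (0.0134 against 0.211) and *col19a1* (0.0268 against 0.346), a leading gene of cluster 12. The peptide genes *vipb*, *sst1.2* and *sst2* were lower as well, each through 1 cell that held at least 96.2% of the UMIs.

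Inside cluster 15 the split compared 252 cells with *gfra1* and 127 without. *ret* was at 8.31 against 3.64 (log2 ratio 1.19, 1.0 to 1.39) and was called higher, as were 1.05% of genes. Also higher were *adarb2* (1.45 against 0.169), *tbx3b* (4.31 against 0.635), the zinc finger gene *sall1a* (2.92 against 0.564) and *mycn* (0.792 against 0.198), each with at least 69 cells on the *gfra1* side. Lower genes, 2.27% of those tested, included *gria2b*, an AMPA receptor subunit (0.149 against 0.833), *nptnb* (0.299 against 1.31), *ntrk3b* (0.474 against 1.90) and *chga*, chromogranin A (2.45 against 5.18). None of 5 neurofilament genes and none of 7 kinase output genes tested was called within the cluster. The median depths were 5021.5 and 4277 UMIs.

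Outside cluster 15, 221 cells had *gfra1* and 2220 did not. *ret* was at 5.59 against 3.82 (log2 ratio 0.55) and was not called. Of 6 neurofilament genes tested, *nefmb* and *neflb* among them, none was called higher. *inaa* was called lower, where 1.45% of genes were, and the list median log2 ratio was −0.16. *etv4*, at 0.514 against 0.178, was the single gene of the output list called higher, where 1.36% of genes were, and the 4 genes heading the list, *col10a1a*, *enam*, *pltp* and *ifitm5*, had at least 95% of their UMIs in 1 cell. These 221 cells were deeper than the others (median 10308 against 6361.5 UMIs) and 6.33% of them, against 2.70%, were predicted doublets, and the part of depth and doublets in this split was not tested.

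Cells with *gfra1a* alone (56) and with *gfra1b* alone (261) were also compared at 60 hpf. The 7 genes heading the higher side, bone and collagen genes and the peptide gene *urp1*, had at least 97.6% of their UMIs in 1 cell, and 1.19% of genes were called higher. On the lower side (1.5%) stood *grin2ca*, an NMDA receptor subunit (0.0590 against 0.670), the tail-level gene *hoxb13a* (0.0738 against 0.674) and *aldh1a2*, which makes retinoic acid (0.162 against 0.993). No gene of the receptor, adaptor, output or neurofilament lists was called.

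At 28 hpf the split ran another way. The 231 motor neurons with *gfra1* had *gfra3* at 1.1 against 4.04 in the 326 without (log2 ratio −1.88, −2.11 to −1.66), called lower as were 2.32% of genes, and *ret* at 2.27 against 4.23 (log2 ratio −0.90, not called). Higher genes (2.21%) included *srd5a2b* (0.411 against 0.0276), the matrix gene *tnr* (1.12 against 0.310), *met* (3.16 against 1.2), the adaptor *dok4* (1.23 against 0.496) and *nefmb* (18.3 against 8.47). Lower genes included *isl2b*, a LIM homeobox gene (0.0228 against 0.231), *sox12* (0.0514 against 0.369), the chemokine receptor *cxcr4b* (0.411 against 2.61), *nr2f1a* (0.246 against 0.689), *prph* (0.223 against 0.699) and the adaptor *gab1* (0.114 against 0.276). Whether this split differed from that at 60 hpf was not tested.

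Among the other receptors *gfra3* had 29291 UMIs over both libraries, and the rest had between 30 and 1172 each. In motor neurons over interneurons, *gfra3* was at 5.04 against 0.454 at 60 hpf and 2.92 against 1.55 at 28 hpf, and *gfra4b* was at 0.214 against 0.0227 at 60 hpf (8 UMIs in interneurons) and 0.463 against 0.0468 at 28 hpf. Of the 5 receptor genes tested at 60 hpf beside the members, *gfra3* and *gfra4b* were called higher, where 7.82% of all genes were. *gfra2b* (43 against 16 UMIs) and *gfra4a* (35 against 19 UMIs) were called lower by level, where 17.5% of all genes were. The median log2 ratio of these 5 was 0.48, against −0.11 over all genes. At 28 hpf *gfra2a* and *gfra4b* were called higher of 4 tested beside the members, where 14.5% of all genes were, and *gfra4a* was lower on 1 UMI, where 21.8% were, with a median of 1.44 against 0.05 over all genes. *gdnfa*, the ligand of GFRα1, had 45 UMIs in motor neurons at 60 hpf (0.0156) and 31 at 28 hpf (0.0658), against 14 (0.0398) and 81 (0.0457) in interneurons.

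Across 32 groups of cells, each a cluster in 1 library, the genes most like each member were found by Pearson's r of log2 levels over 11664 genes, given as a description since the groups share libraries and depth. *gfra1a* ran closest to *CT573344.1* (r = 0.88), *mafb* (0.85) and *brinp3a.1* (0.79), and *gfra1b* to *mafb* (0.83), *cntn2*, an axonal adhesion molecule (0.81), and *peli3* (0.80). *ret* ran closest to *gfra3* (0.94), then *fam171a1* (0.92) and *enox1* (0.91). The members ran together less closely, with r of 0.75 between the *gfra1* copies, 0.68 between *gfra1b* and *ret* and 0.48 between *gfra1a* and *ret*. Across the same groups *gfra3* had r of 0.29 with *gfra1a* and 0.51 with *gfra1b*.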

How the data were processed

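The authors sorted fluorescent trunk cells and made 10x Genomics 3′ libraries, and the deposited files hold raw UMI counts per gene and cell. Per the file headers they came from Cell Ranger 5.0.0, and the submitters' processing notes name GRCz11 and Scanpy. Here Scanpy 1.11.5 clustered cells with at least 1000 genes (4000 variable genes, 50 components, 15 neighbours, Louvain resolution 1 with igraph), leaving out 72 pathway and member genes. The members and lists were chosen with earlier results of these data known. Clusters were named by a median log2 ratio of at least 1 over the listed markers with at least 3 of them each in 5% of cells. Doublets were predicted with Scrublet (top 0.8% of scores per 1000 cells) and kept. Thinning to 2000 UMIs left out shallower cells, 121 of 2941 motor neurons at 60 hpf and 30 of 587 at 28 hpf. With 1 library a stage no test was run and no p-value is given. The genes named were the members, the called genes of the lists, the 8 largest ratios at each end of a split of cells (at least 50 UMIs) and the 5 most alike, 1 UMI being added in ratios of listed and ranked genes. On simulated counts for motor neurons over interneurons at 60 hpf, the rule of size found 198 of 200 genes changed 3-fold among 16334 and called 643 unchanged ones. Alternatives were other cell filters, doublets removed, other clusterings, gating on marker UMIs, cell means, thinning depths and call rules. Chosen after seeing the data were the splits within and outside cluster 15 and at 28 hpf, the tracing of cluster 15 through other clusterings, removal of doublets with clusters kept, the levels at resolution 2, interneurons without cluster 6, and levels without the richest cell.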

Additional observations from a re-analysis of the deposited data

How the results depend on the processing

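No paired analysis was possible because each stage had 1 library and the labels carry no replicate numbers, and nothing could be left out in turn. Of 121 recomputed main values, 43 stayed within their interval or within 1.5 times, 70 moved beyond it and 8 changed direction. Of 108 recomputed levels of motor neurons and interneurons, 58 moved, and a level has no direction that could change.

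The following values are log2 ratios that moved. With cells of at least 500 genes, motor neurons over interneurons gave 3.92 for *gfra1a* and 1.90 for *gfra1b* at 60 hpf, and −0.50 for *gfra1a*, −0.65 for *gfra1b* and 2.22 for *ret* at 28 hpf, while 60 hpf over 28 hpf in motor neurons gave 5.01, 2.19 and −0.55. There only 154 of its 807 motor neurons at 28 hpf were among the 587. With at most 4000 genes and 20% mitochondrial UMIs, motor neurons over interneurons gave 4.05, 1.73 and 2.37 at 60 hpf and 2.67, 2.24 and 1.91 at 28 hpf, and 60 hpf over 28 hpf gave 2.04, −0.55 and −0.041. With predicted doublets removed, motor neurons over interneurons at 28 hpf gave 2.43, 2.39 and 1.61, and 60 hpf over 28 hpf gave 1.86, −0.56 and −0.079. Gating on UMIs gave 3.21 for *ret* at 60 hpf, 2.17, 1.82 and 2.76 for the 3 genes at 28 hpf, and 2.63, 0.088 and −0.15 for 60 hpf over 28 hpf. Resolution 2 gave 2.49 for *gfra1b* and 1.59 for *ret* at 28 hpf, and 1.67, −0.85 and 0.063 for 60 hpf over 28 hpf. Separate clustering of the libraries gave 2.27 for *ret* at 60 hpf, 2.44 for *gfra1b* and 1.15 for *ret* at 28 hpf, and 1.83, −0.67 and 0.44 for 60 hpf over 28 hpf. All variable genes in the clustering gave 2.71, 2.41 and 1.11 at 28 hpf, and 1.58, −0.87 and 0.46 for 60 hpf over 28 hpf. Means over cells gave 2.94 for *gfra1b* and 2.86 for *ret* at 60 hpf, 3.27 and 1.62 at 28 hpf, and −1.44 for *gfra1b* at 60 hpf over 28 hpf. Leaving out interneuron cluster 6, chosen after seeing the data, gave 1.63 for *ret* at 28 hpf. The cells named motor neurons differed between the clusterings and the gate at both stages, and no cause of these moves was tested.

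Under each other clustering, the cluster highest in *gfra1b* was picked anew and set against the other 60 hpf motor neurons. Its higher *gfra1b* level was thus fixed by the choice and is no check of direction. The ratios of *gfra1a* and *ret* stayed positive. *gfra1a* was found with *gfra1b* more often than independent detection would give, and the members were picked with this pattern known. Their direction is thus no independent check either. Of the picked cells, 21.2% came from cluster 15 with cells of at least 500 genes and 40.0% with all variable genes. For *gfra1a*, *gfra1b* and *ret* the log2 ratios were 2.99, 2.59 and 0.84 with cells of at least 500 genes, 5.07, 4.30 and 1.06 with at most 4000 genes, 4.31, 3.85 and 1.03 when the libraries were clustered separately, and 3.18, 2.86 and 0.91 with all variable genes. For *gfra1b* it was 3.8 with predicted doublets removed. The co-detection ratio of *gfra1* and *ret* in 60 hpf motor neurons was 1.49 at 1000 UMIs and 1.17 without thinning, and at 28 hpf 0.94 and 0.86. Removing predicted doublets gave 0.62 at 28 hpf, where 576 of the 1176 cells then named motor neurons were among the 587.

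The numbers of genes called at 1.5-fold and with at least 100 UMIs were 7131 and 2294 for motor neurons over interneurons at 60 hpf (4143 as reported), 9014 and 3521 at 28 hpf (5810), 8746 and 3140 for 60 hpf over 28 hpf (5173), 1454 and 233 for any *gfra1* over neither (421), and 862 and 60 for *gfra1a* alone over *gfra1b* alone (188). With 1 library a stage, depth limits levels near 3 UMIs, and differences between libraries cannot be told apart from those between stages.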

Other observations

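Outside the neurons, the receptors were seen in oligodendrocyte-lineage cells and mesenchyme at 60 hpf, mostly through a few rich cells. In the 357 oligodendrocyte-lineage cells *gfra1b* had 138 UMIs in 14 cells, 1 of which held 48, *gfra1a* had 99 UMIs in 28 cells, and *ret* had 169 in 51. In the 106 mesenchyme cells *gfra1b* had 88 UMIs in 7 cells and *gfra1a* 51 in 6 cells. *artnb*, a ligand of the artemin type, was at 0.221 in mesenchyme (22 UMIs) and at 0.142 in radial glia (13 UMIs), against 0.00624 in motor neurons at 60 hpf (18 UMIs). *gdnfa* was at 0.191 in mesenchyme (19 UMIs), against 0.0156 in motor neurons at 60 hpf.

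An unnamed cluster at 28 hpf, cluster 14 (439 cells, median 14951 UMIs, of which 49.7% were predicted doublets), had *ret* at 2.9 and *gfra1b* at 0.756 and entered no comparison of motor neurons and interneurons. Cluster 13 at 60 hpf (459 cells) had *ret* at 0.575 and *gfra1b* at 0.0530. It scored about alike for pMN progenitor (1.85) and radial glia (1.79) markers, and its 10 leading genes held *gfap* and no listed pMN marker, so it is not compared with other clusters by name. pMN progenitors at 28 hpf had *ret* at 0.411 and *gfra1b* at 0.0683, and cycling progenitors *ret* at 0.264.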
